A study of Homo sapiens with 2 samples.

Results

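The genes described here encode the enzymes of glycolysis around pyruvate kinase: HK2, PFKP, ALDOA, TPI1, GAPDH, PGK1, ENO1, PKM, LDHA and LDHB. They were chosen by name, as transcripts whose deposited annotation gave exactly one of these 10 gene names. This found 9 of the 10 genes, among 57110 gene entries in all. PFKP had no entry of its own, because its transcripts were deposited in an entry joined with AL451164.3 and PITRM1-AS1. Its values are those of the joint entry and enter no count of genes.

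Glycolysis breaks glucose down to pyruvate in the cytosol. Hexokinase and phosphofructokinase commit the sugar, aldolase and triose phosphate isomerase split it, and GAPDH, phosphoglycerate kinase and enolase lead to the last step, catalysed by pyruvate kinase. Lactate dehydrogenase then interconverts pyruvate and lactate as a tetramer of A subunits, from LDHA, and B subunits, from LDHB. Many tumour cells make lactate even where oxygen is present. PKM gives rise to the PKM1 and PKM2 enzymes by a choice between a pair of mutually exclusive exons, and PKM2 is the form commonly found in proliferating cells.

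The cells came from the established human lines SK-OV-3, IGROV1 and COV504, grown from ovarian tumours. Trypsinised cells were pooled 1:1:1, with no treatment named in the labels, and profiled as single cells on Illumina and nanopore PromethION instruments. Each platform had 1 library, so there is no replicate and no test between lines was possible. Cells of 1 library are not replicates. Every interval below is a 95% interval that covers counting error only. All values come from the PromethION library, which reads whole cDNA molecules and held 13052893 estimated counts over 2462 barcodes. All 2462 barcodes were also in the Illumina list.

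The labels do not tie a barcode to a line. Barcodes with at least 1000 counts were therefore given to a line where 1 of 3 marker sets held at least 75% of the counts of 10 marker genes, none of them a glycolytic enzyme. The set ERBB2, NNMT, TSPAN1 and DHRS2 marked 648 barcodes, RARRES2 and TMEM100 marked 473 and FOLR1, CLDN3, DEFB1 and CXCL14 marked 765. A further 243 barcodes had no line and 333 had under 1000 counts. Near the limit, 85 barcodes had a leading set at 75 to 80% and 39 at 70 to 75%. The ERBB2-high line was SK-OV-3-like by genes outside the rule. STARD3 had 214 CPM (the counts of a gene scaled by the total of its line) there against 22.2 and 13.3 in the RARRES2-high and FOLR1-high lines, and PGAP3 had 22.9 against 2.37 and 1.77. GRB7 separated it from the RARRES2-high line (56.4 against 2.66 CPM) more than from the FOLR1-high line (28.8 CPM). CDKN2A, which SK-OV-3 lacks, had 1 count in the ERBB2-high line, 0 in the RARRES2-high line and 88 in the FOLR1-high line, and so did not separate the first pair. The other lines keep the names of their markers, since the marker evidence did not separate IGROV1 from COV504. Of 11 marker genes of blood, endothelial and stromal cells, CD68 lay in a joint entry, COL1A1 had 329, 79 and 15 counts in the ERBB2-high, RARRES2-high and FOLR1-high lines, and the other 9 had at most 8 counts in any line. PTPRC had 0, 1 and 1 counts, and CD3E, LYZ and DCN had 0 in every line. The part of COL1A1-expressing cells in the differences below was not tested.

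The 3 lines differed in the make-up of their RNA. The median depth was 4953 counts per barcode in the ERBB2-high line, 6262 in the RARRES2-high line and 5289 in the FOLR1-high line. Ribosomal protein genes took 11.97%, 15.01% and 26.7% of the counts, and mitochondrial genes 2.93%, 3.11% and 7.07%. CPM is a share of all counts, and the median gene tested was not at a ratio of 1. It stood 1.37-fold higher in the ERBB2-high than in the FOLR1-high line (log2 0.46), 1.17-fold higher in the RARRES2-high than in the FOLR1-high line (log2 0.23), and 1.15-fold higher in the ERBB2-high than in the RARRES2-high line (log2 0.20). Log2 ratios are therefore also given relative to that median.

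The sequences that carry the comparisons of PKM are its mutually exclusive exons, since each of the 8 PKM transcripts listed in the files holds exactly 1 of them: 3 hold exon 10 and the other 5 exon 9. Both were read from GENCODE release 29 transcripts (GRCh38), lie on the minus strand and are wholly coding, with the same length of 167 bases. Capitals mark the 62 positions at which they differ, counted position by position; the other 105 bases (62.9%) are shared. Exon 9, at chr15:72203022-72203188, gives PKM1, and exon 10, at chr15:72202454-72202620, gives PKM2. Each is the ninth of 11 exons in its transcript.
PKM exon 9: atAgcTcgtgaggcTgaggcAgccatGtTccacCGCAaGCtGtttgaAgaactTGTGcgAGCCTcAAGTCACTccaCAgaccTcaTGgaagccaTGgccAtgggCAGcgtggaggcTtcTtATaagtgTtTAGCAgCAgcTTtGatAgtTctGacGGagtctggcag
PKM exon 10: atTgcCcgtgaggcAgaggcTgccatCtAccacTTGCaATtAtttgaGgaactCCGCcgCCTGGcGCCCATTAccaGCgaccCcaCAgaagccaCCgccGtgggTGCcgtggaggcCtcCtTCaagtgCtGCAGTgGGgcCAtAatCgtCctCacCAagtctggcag

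For the lactate dehydrogenase genes, whose levels went in opposite directions between lines, the 75 bases before the start of the leading transcript are shown from the RefSeq promoter table (GRCh38.p14). They are chr11:18394313-18394387 on the plus strand for LDHA and chr12:21657843-21657917 on the minus strand for LDHB. Capitals mark ACGTG or GCGTG on either strand, the core letters bound by hypoxia-inducible factors. The palindrome CACGTG holds ACGTG on both strands.
LDHA: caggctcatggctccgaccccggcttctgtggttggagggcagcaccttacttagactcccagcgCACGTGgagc
LDHB: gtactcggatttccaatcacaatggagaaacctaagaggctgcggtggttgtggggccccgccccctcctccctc

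LDHA has 1 CACGTG in its 75 bases and LDHB has neither motif. In the whole 300-base promoter windows, ACGTG was present in 21.4% of 35116 RefSeq promoters, GCGTG in 36.5% and CACGTG in 7.26%, so a match is common. ACGTG was counted on both strands, so each CACGTG gives 2. It was present in a window of LDHA (5, with 2 CACGTG), PGK1 (3), GAPDH (2, with 1 CACGTG) and HK2 (up to 4, with 2 CACGTG). The same held for ALDOA (up to 2, with 1 CACGTG), TPI1 (1) and PFKP (1). The PKM, ENO1 and LDHB windows held GCGTG without ACGTG. Genes with several RefSeq starts have several windows, whereas the shares above are per promoter. Binding was not measured.

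The first question was which enzymes were transcribed at different levels in the 3 lines. The FOLR1-high line had less PKM and LDHA and more LDHB than either other line, whereas GAPDH and TPI1 differed by at most 1.54-fold in any pair. The 9 genes together took 1.21% of all counts in the ERBB2-high line, 1.27% in the RARRES2-high line and 0.853% in the FOLR1-high line. Of these genes, 8 passed the filter on low counts (at least 50 counts over both lines and a mean of 10 CPM), and HK2 did not. Between the ERBB2-high and FOLR1-high lines, 5 of the 8 had a ratio of CPM of at least 2, beside 33.9% of 8007 genes tested. Of the 5, 4 were higher in the ERBB2-high line (PKM, LDHA, ENO1 and ALDOA), beside 25.5% of genes, and 1, LDHB, in the FOLR1-high line, beside 8.43%. Between the RARRES2-high and FOLR1-high lines the number was 3 of 8, beside 33.1% of 7748. PKM and LDHA were higher in the RARRES2-high line, beside 22% of genes, and LDHB in the FOLR1-high line, beside 11.1%. It was 0 of 8 between the ERBB2-high and RARRES2-high lines, beside 33% of 8266, of which 20.2% were higher in the ERBB2-high and 12.7% in the RARRES2-high line. The median log2 ratio of the 8 genes was 0.92, 0.69 and -0.18 in these pairs, beside 0.46, 0.23 and 0.20 for all genes tested. Relative to the median gene the numbers were 2, 3 and 0 of 8, beside 28.4%, 31.8% and 31.2%. In the RARRES2-high and FOLR1-high pair the share lay near the background. In the ERBB2-high and FOLR1-high pair it did so relative to the median gene. These counts therefore say nothing particular about these genes, and the genes are described singly.

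**Figure D1:**
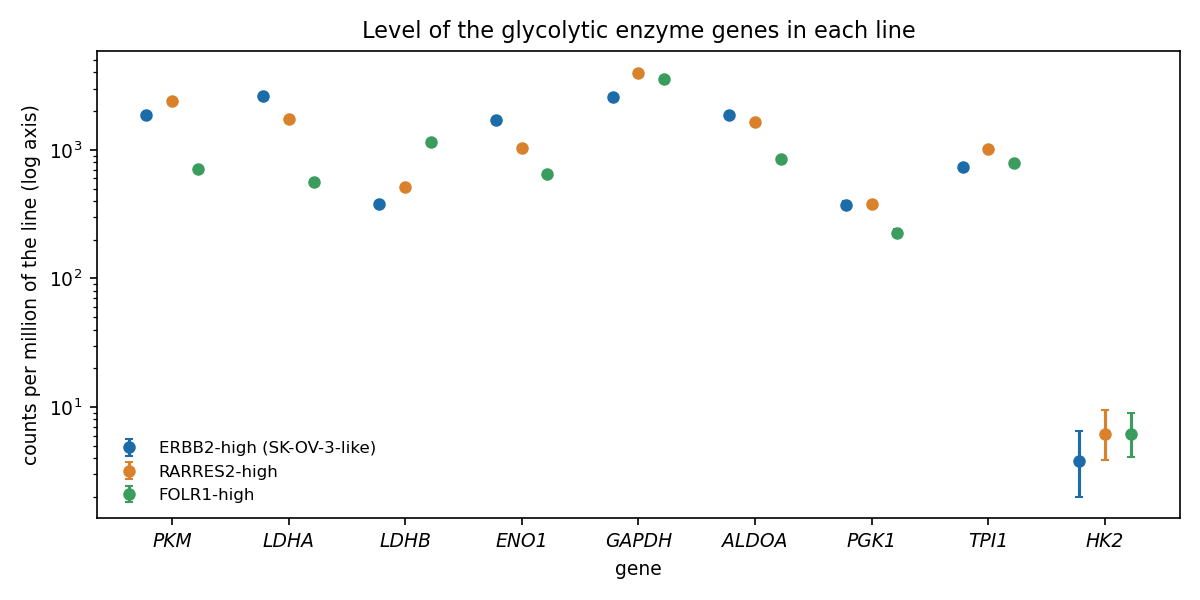
CPM (log axis) for the 9 glycolytic enzyme genes with an entry of their own; points are the 3 lines and bars are exact Poisson intervals that cover counting error only. PKM, LDHA and ENO1 are lowest and LDHB is highest in the FOLR1-high line, and the HK2 intervals overlap in all lines.

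In the preparatory steps, HK2 (ENSG00000159399, chromosome 2, 74833981 to 74893359), the inducible hexokinase, was nearly unread. It had 13, 21 and 28 counts in the ERBB2-high, RARRES2-high and FOLR1-high lines, or 3.78 (interval 2.01 to 6.46), 6.22 (3.85 to 9.50) and 6.20 CPM (4.12 to 8.96). The intervals overlapped, so a difference was not detectable at this depth. The joint entry of PFKP, the platelet-type phosphofructokinase (chromosome 10), had 752 counts or 218 CPM in the ERBB2-high line (interval 203 to 235), 79.3 in the RARRES2-high line (70.1 to 89.4) and 68.2 in the FOLR1-high line (60.8 to 76.3). That entry was 2.75-fold and 3.20-fold higher in the ERBB2-high line than in the others. Its PITRM1-AS1 transcript held 1, 0 and 1 counts in the ERBB2-high, RARRES2-high and FOLR1-high lines. The AL451164.3 transcript held 0 in each, so nearly all counts lay in PFKP transcripts. The entry passed the same filter but is not among the genes counted above.

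ALDOA (ENSG00000149925, chromosome 16, 30053090 to 30070420), the aldolase that cleaves fructose 1,6-bisphosphate, had 1862 CPM in the ERBB2-high line (interval 1816 to 1908), 1659 in the RARRES2-high line (1616 to 1703) and 855 in the FOLR1-high line (829 to 883). The ratio of the ERBB2-high to the FOLR1-high line was 2.18 (interval 2.09 to 2.27), or log2 1.12, and log2 0.66 relative to the median gene. TPI1 (ENSG00000111669, chromosome 12, 6867119 to 6870948), which interconverts the triose phosphates made by aldolase, had 738 CPM (interval 710 to 767), 1014 (980 to 1048) and 788 (762 to 814) in the same order of lines. The RARRES2-high line was highest for TPI1, by 1.37-fold over the ERBB2-high line.

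The steps after the split showed no common direction. GAPDH (ENSG00000111640, chromosome 12, 6533927 to 6538374), the dehydrogenase often used as a reference gene, had 2583 CPM in the ERBB2-high line (interval 2529 to 2637), 3968 in the RARRES2-high line (3901 to 4035) and 3582 in the FOLR1-high line (3527 to 3637). GAPDH was thus lowest in the line with the most LDHA. The small excess of the RARRES2-high over the FOLR1-high line, log2 0.15, turned to -0.08 relative to the median gene. PGK1 (ENSG00000102144, chromosome X, 78104174 to 78129296), the first enzyme of the pathway to make ATP, had 376 CPM in the ERBB2-high line (interval 356 to 397), 377 in the RARRES2-high line (356 to 398) and 228 in the FOLR1-high line (214 to 242). ENO1 (ENSG00000074800, chromosome 1, 8861002 to 8878690), the main enolase, had 1712 CPM (interval 1669 to 1756), 1026 (992 to 1060) and 652 (628 to 676) in that order. The ENO1 ratio of the ERBB2-high to the FOLR1-high line was 2.63 (interval 2.51 to 2.75), log2 1.39, and 0.94 relative to the median gene.

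PKM (ENSG00000067225, chromosome 15, 72199029 to 72231822) was highest in the RARRES2-high line, with 8061 counts or 2386 CPM (interval 2335 to 2439). The ERBB2-high line had 6431 counts or 1868 CPM (interval 1823 to 1914), and the FOLR1-high line 3197 counts or 708 CPM (684 to 733). The RARRES2-high line had 3.37-fold more PKM than the FOLR1-high line (interval 3.23 to 3.51), log2 1.75 and 1.52 relative to the median gene. For the ERBB2-high line the ratio was 2.64 (interval 2.53 to 2.75), log2 1.40, which falls to 0.94 relative to the median gene and so under the 2-fold limit.

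LDHA and LDHB ran in opposite directions. LDHA (ENSG00000134333, chromosome 11, 18394388 to 18408425) had 9003 counts or 2615 CPM in the ERBB2-high line (interval 2562 to 2670), 5826 counts or 1725 CPM in the RARRES2-high line (1681 to 1770) and 2541 counts or 563 CPM in the FOLR1-high line (541 to 585). LDHB (ENSG00000111716, chromosome 12, 21635342 to 21657842) had 1310, 1743 and 5178 counts in that order, or 381 CPM (interval 360 to 402), 516 (492 to 541) and 1147 (1116 to 1179). Thus LDHA was 4.65-fold higher in the ERBB2-high than in the FOLR1-high line (interval 4.45 to 4.86), log2 2.22 and 1.76 relative to the median gene. In the same pair LDHB was 3.01-fold higher in the FOLR1-high line, log2 -1.59 and -2.05 relative to the median gene. Against the RARRES2-high line, the FOLR1-high line had 2.22-fold more LDHB, and the RARRES2-high line had 3.06-fold more LDHA (interval 2.92 to 3.21).

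The balance of the subunit genes does not depend on the total count. LDHB made up 12.7% of the LDHA plus LDHB counts in the ERBB2-high line (interval 12.1 to 13.4%), 23.0% in the RARRES2-high line (22.1 to 24.0%) and 67.1% in the FOLR1-high line (66.0 to 68.1%). The pattern was visible in single cells. Among cells with at least 3 counts of both genes together, LDHB held more than 50% in 7 of 629 cells of the ERBB2-high line (1.11%), in 26 of 445 of the RARRES2-high line (5.84%) and in 568 of 704 of the FOLR1-high line (80.7%). The median cell was at 12.5%, 22.2% and 71.4%. In the FOLR1-high line 10% of cells lay under 42.9%, and 96 cells (13.6%) had less LDHB than LDHA, so the distributions of the lines overlapped.

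**Figure D2:**
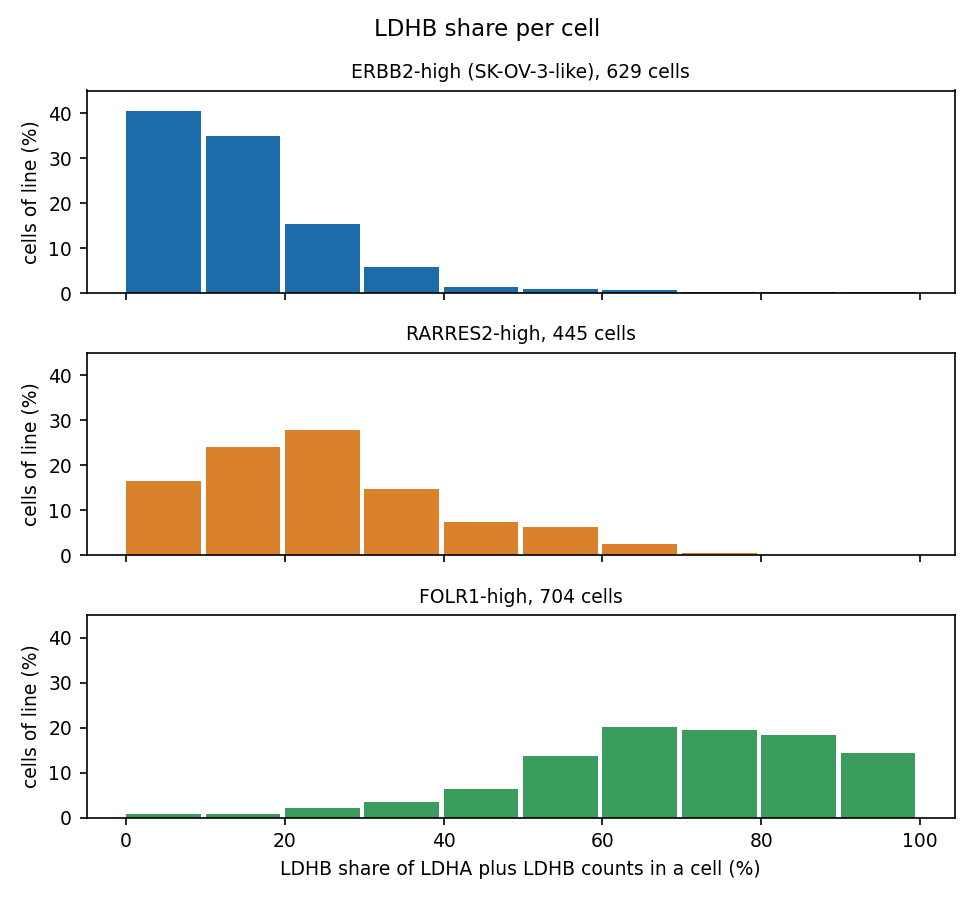
Share of LDHB in the LDHA plus LDHB counts of a cell (x axis, percent, bins of 10 points) against the percent of cells of the line (y axis), for cells with at least 3 counts of both genes together. Most cells of the ERBB2-high and RARRES2-high lines lie under 50% and 80.7% of the FOLR1-high cells lie above it.

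Reads that belong to processed pseudogenes were not a visible part of these counts. The files list 62 GAPDH pseudogenes, 6 of LDHA, 5 of PKM and 4 each of ENO1 and TPI1. In the 3 lines the LDHA pseudogenes had 1 count in all, the PGK1 pseudogene 1, and those of PKM, LDHB, ENO1, GAPDH, ALDOA, TPI1 and HK2 had 0. Reads of these copies placed on the parent genes were not tested for.

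The next question was whether other genes of glucose use followed the same lines. Over the 4 lists of transporters, further isoenzymes, regulators and branch enzymes the number past 2-fold was 13 of 20 tested between the ERBB2-high and FOLR1-high lines, beside 33.9% of all genes. It was 10 of 20 between the RARRES2-high and FOLR1-high lines, beside 33.1%, and 11 of 19 between the ERBB2-high and RARRES2-high lines, beside 33%. In 5 of the 13, 3 of the 10 and 4 of the 11 the lower line was under 10 CPM, so these genes passed the filter, a mean of 10 CPM over the pair, only through the line where they were high and had to differ. The counts are therefore given as a description, and no excess over all genes is read from them. Of the transporters, SLC2A1 was lower in the FOLR1-high line than in both others, as PKM and LDHA were. SLC16A3, the lactate exporter MCT4, passed the filter against the FOLR1-high line only through the higher line, so nothing is read from its direction. It had 701 counts or 204 CPM in the ERBB2-high line (interval 189 to 219), 835 counts or 247 CPM in the RARRES2-high line (231 to 265) and 39 counts or 8.64 CPM in the FOLR1-high line (6.14 to 11.8). The ratios to the FOLR1-high line were 23.6 (interval 17.1 to 33.4) and 28.6 (20.8 to 40.5). Whether the 39 counts came from RNA free in the suspension was not tested. SLC2A1, the glucose transporter GLUT1, had 132, 129 and 21.3 CPM, which gives ratios of 6.20 (interval 4.97 to 7.81) and 6.07 (4.86 to 7.65). SLC16A1, the transporter MCT1, differed by 1.51-fold at most (interval 1.20 to 1.91). BSG, the chaperone of both lactate transporters, was lowest in the RARRES2-high line, at 289 CPM against 602 and 494.

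Among 15 further isoenzymes of the pathway, 7 passed the filter between the ERBB2-high and FOLR1-high lines, with 2 higher in the former, beside 25.5% of all genes tested, and 3 higher in the latter, beside 8.43%. PFKM and ALDOC, among the 3, passed only through the FOLR1-high line, so nothing is read from that count. Relative to the median gene 1 of the 2, HK1, and all of the 3 were past 2-fold, and PFKL was at log2 0.97. HK1, the common hexokinase, had 102 CPM in the ERBB2-high line (interval 91.6 to 113) against 42.9 and 34.3, and PFKL, the liver-type phosphofructokinase, had 107 against 37.3 and 39.6. PFKM, the muscle-type phosphofructokinase, had 5.23 CPM in the ERBB2-high line, 15.1 in the RARRES2-high line and 31.5 in the FOLR1-high line (interval 26.5 to 37.1). BPGM, which makes 2,3-bisphosphoglycerate, had 10.7, 11.5 and 32.6 CPM, and ALDOC, the brain-type aldolase, had 6.68, 5.33 and 17.3 CPM. PGAM1, the phosphoglycerate mutase, was highest in the RARRES2-high line, at 184 CPM against 84.5 and 121, and so was ENO2, the neuronal enolase, at 20.4 against 6.39 and 6.87, with the filter passed only through that line. HK3 and PKLR had 0 counts in all 3 lines.

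**Figure D3:**
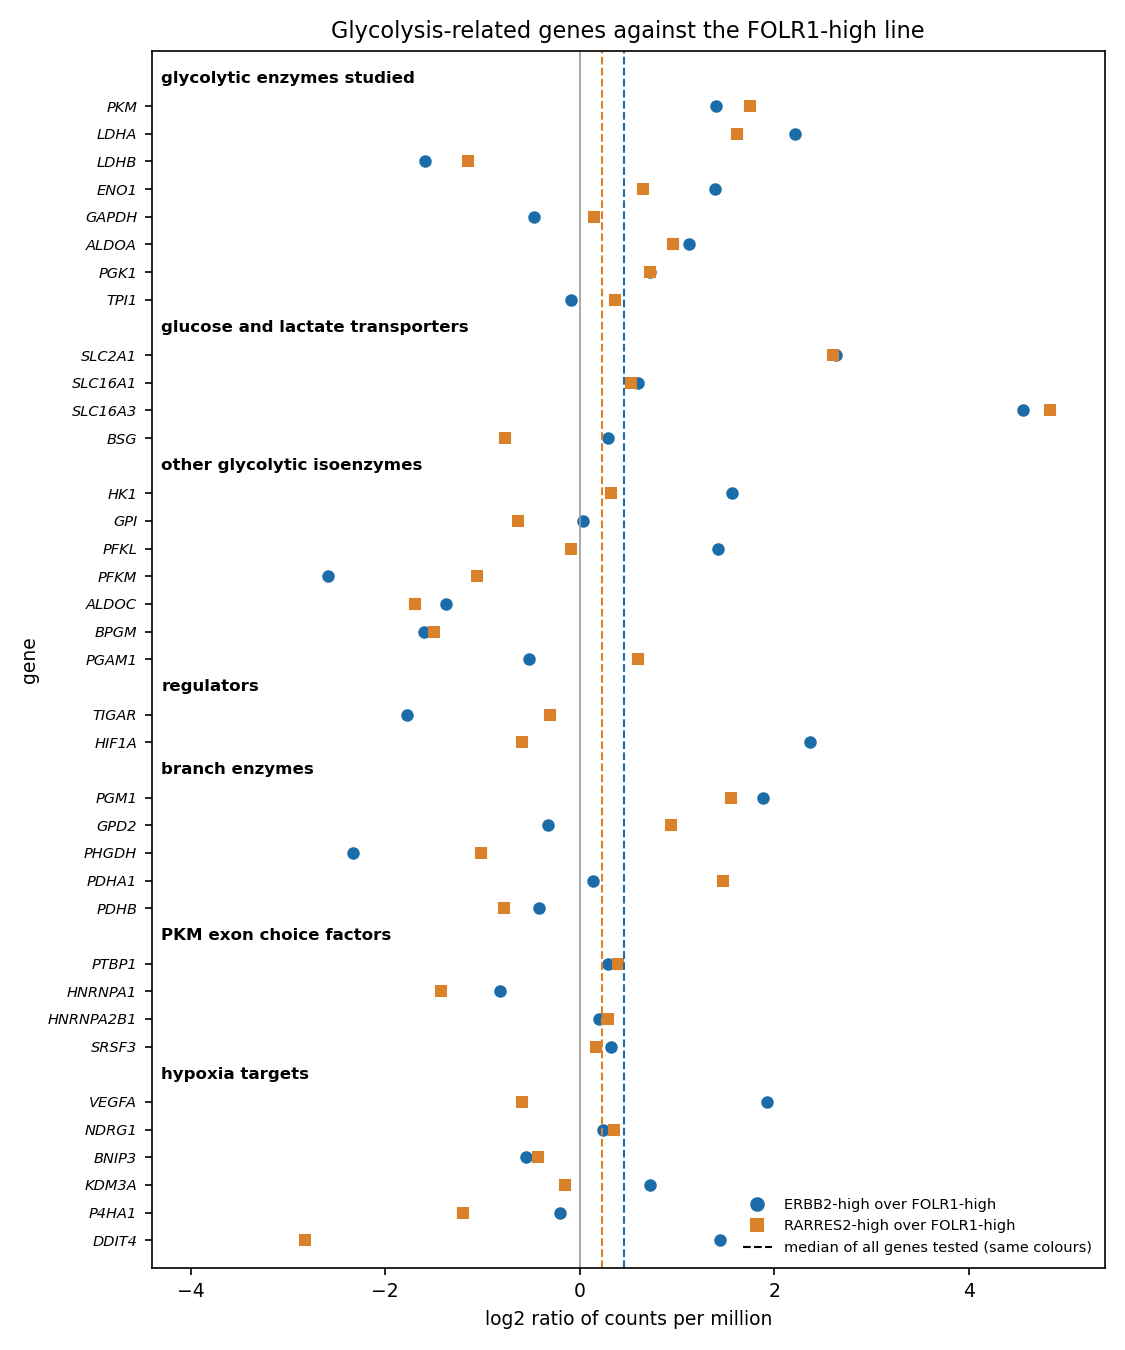
Log2 ratio of CPM to the FOLR1-high line (x axis) for listed genes that passed the filter in both pairs and are reported here, with circles for the ERBB2-high and squares for the RARRES2-high line. Dashed lines mark the median of all genes tested, 0.46 and 0.23. LDHB and BPGM lie to the left of 0 in both pairs. SLC16A3, PFKM, ALDOC and TIGAR passed the filter in 1 or both pairs only through the line where they were high, so nothing is read from their place.

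Of 10 regulators, 3 passed the filter between the ERBB2-high and FOLR1-high lines, with HIF1A and PFKFB3 at least 2-fold higher in the former, beside 25.5% of all genes, and TIGAR in the latter, beside 8.43%, also relative to the median gene. PFKFB3 and TIGAR reached a mean of 10 CPM only through the line where they were high, and nothing is read from their direction. HIF1A, the oxygen-regulated factor that acts on many glycolytic genes, had 515 CPM in the ERBB2-high line (interval 491 to 540), 65.7 in the RARRES2-high line (57.4 to 74.96) and 99.4 in the FOLR1-high line (90.5 to 109). The ratios were 7.84 (interval 6.81 to 9.05) and 5.18 (4.67 to 5.76). PFKFB3, which makes the activator of phosphofructokinase, had 63, 9 and 15 counts, or 18.3, 2.66 and 3.32 CPM. TIGAR, which lowers that activator, had 5.23, 14.5 and 17.9 CPM. Of 10 hypoxia targets, 6 passed the filter between the ERBB2-high and FOLR1-high lines and 2 of them, VEGFA and DDIT4, had a ratio of at least 2, both higher in the ERBB2-high line. That share is near the 33.9% of all genes tested, and the list's median log2 ratio was 0.49 beside 0.46. Relative to the median gene DDIT4 was at log2 0.98, VEGFA was past 2-fold in the same direction and BNIP3 in the opposite one, at log2 -1.01. The list's median log2 ratio was 0.88 beside 0.20 for the ERBB2-high over the RARRES2-high line, with 7 genes tested. For the RARRES2-high over the FOLR1-high line it was -0.42 beside 0.23, also with 7 tested. VEGFA, the endothelial growth factor, had 95.3, 16.6 and 25.03 CPM, and DDIT4, an inhibitor of mTORC1, had 563, 29.3 and 207 CPM. ADM, adrenomedullin, had 11.6, 29.6 and 1.55 CPM, and unlike them was highest in the RARRES2-high line. NDRG1 had 29.6, 32.0 and 25.03 CPM with overlapping intervals, and BNIP3, a mitophagy receptor, was highest in the FOLR1-high line, at 149 CPM against 102 and 111.

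Of 6 branch enzymes tested, 3 were past 2-fold between the ERBB2-high and FOLR1-high lines, beside 33.9% of all genes, 4 between the RARRES2-high and FOLR1-high lines, beside 33.1%, and 3 between the ERBB2-high and RARRES2-high lines, beside 33%. PGM1, which links glycogen to glycolysis, had 109, 86.4 and 29.5 CPM in the ERBB2-high, RARRES2-high and FOLR1-high lines, lowest in the last. PHGDH, the first enzyme of serine synthesis from 3-phosphoglycerate, was highest there, with 213 CPM (interval 200 to 227) against 42.4 and 106, a ratio of 5.02 to the ERBB2-high line. PDHA1, a subunit of pyruvate dehydrogenase, was highest in the RARRES2-high line, at 315 CPM (interval 296 to 334) against 125 and 114. Its partner PDHB had 77.9, 60.7 and 104 CPM and was under 2-fold in every pair. Relative to the median gene it was at log2 -1.01 for the RARRES2-high over the FOLR1-high line.

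The long reads also gave the transcripts used. ENO1 and PGK1 have a single listed transcript and HK2 too few counts, so 6 genes had shares to compare. Reads compatible with several transcripts were split by the deposited estimates. Only 0.893% of the PKM, 0.996% of the GAPDH and 5.94% of the LDHA counts stood as whole numbers for a transcript in a barcode. A whole number can also be a sum of split reads. The TPI1 transcripts ENST00000229270 and ENST00000613953, equal in counts in the ERBB2-high line, each had 7.10% of them whole. Shares were therefore compared at matched count of the gene per cell. The largest share difference reached 10 percentage points in 0 of the 6 genes between the ERBB2-high and RARRES2-high lines, beside 10.9% of 4245 genes. It did so in 1 of 6 between the ERBB2-high and FOLR1-high lines, beside 11.2% of 4477, and in 1 of 6 between the RARRES2-high and FOLR1-high lines, beside 14.1% of 4120. That gene was ALDOA in both pairs.

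PKM transcripts with exon 10, the PKM2 type, dominated all 3 lines. At matched count per cell they held 96.7% in the ERBB2-high line (interval 95.6 to 97.6%), 96.6% in the RARRES2-high line (95.5 to 97.5%) and 97.3% in the FOLR1-high line (96.3 to 98.1%), each at 1308 matched counts. The intervals overlapped. Without matching the FOLR1-high line was the lowest, at 95.8% (interval 95.0 to 96.4%) against 97.5% and 97.7%. The order thus depended on the number of PKM counts in a cell. Barcodes with 1 PKM count, of which the lines had 16, 14 and 91, gave the exon 10 form 72.1%, 70.7% and 72.3%, whereas those with over 10 counts gave 98.2% (interval 97.8 to 98.6%), 98.0% (97.6 to 98.3%) and 98.5% (97.0 to 99.3%). By the deposited estimates the remaining counts lay in transcripts with exon 9, whose letters differ from exon 10 at the 62 capitals shown above. In the ERBB2-high and RARRES2-high lines none of these counts stood as a whole number. Whether they came from molecules with exon 9 was not tested.

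**Figure D4:**
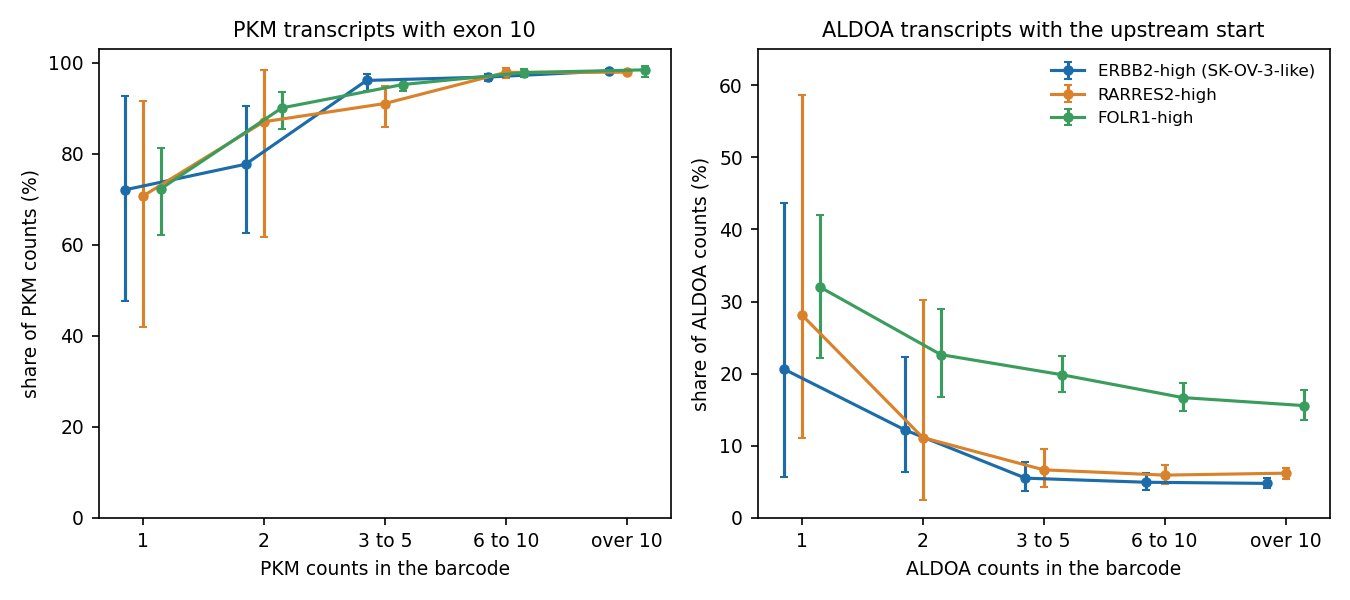
Share of PKM counts in transcripts with exon 10 (left) and share of ALDOA counts in transcripts with the upstream start (right), in percent, by the number of counts of the gene in the barcode; lines are the 3 cell lines and bars exact binomial intervals that cover counting error only. The PKM curves meet near 98% at over 10 counts, and the ALDOA curve of the FOLR1-high line stays above the other two.

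The factors known to act on this exon choice were also read. PTBP1 had 88.3, 94.7 and 72.2 CPM in the ERBB2-high, RARRES2-high and FOLR1-high lines, HNRNPA2B1 had 702, 747 and 610, and SRSF3 had 500, 449 and 400. HNRNPA1 stood apart, with 500 CPM (interval 477 to 525), 330 (311 to 350) and 884 (856 to 911), 2.68-fold higher in the FOLR1-high than in the RARRES2-high line. RBM4 lay in a joint entry.

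Within the exon 10 form, ENST00000335181 (72199032 to 72231206) held 84.5% of PKM in the ERBB2-high line, 85.1% in the RARRES2-high line and 89.1% in the FOLR1-high line at matched counts. ENST00000449901 followed with 6.96%, 6.87% and 4.37%, and ENST00000389093, which has 10 exons, with 5.26%, 4.69% and 3.83%. The largest PKM difference in any pair was 4.69 points.

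The estimated shares of ALDOA transcripts with different starts differed between lines, though 1 gene of 6 is near the background given above. The call between the ERBB2-high and FOLR1-high lines was absent on whole counts only, and 3.21% of the ALDOA counts were whole. Its leading transcript ENST00000564546 (30065148 to 30070420) held 90.9% in the ERBB2-high line (interval 89.8 to 92.0%), 89.5% in the RARRES2-high line (88.2 to 90.6%) and 77.2% in the FOLR1-high line (75.6 to 78.8%) at 2687 matched counts. The 5 transcripts that start upstream, between 30053090 and 30053494, held 4.86% (interval 4.09 to 5.76%), 6.82% (5.89 to 7.83%) and 16.9% (15.5 to 18.3%). Barcodes with over 10 ALDOA counts gave the same order, at 4.78%, 6.19% and 15.6%. Most of the upstream counts lay in ENST00000338110, at 2.16%, 3.17% and 8.22%, and ENST00000566897, at 2.08%, 3.14% and 8.18%, and ENST00000395248 held 0.50%, 0.43% and 0.30%. The values of the first pair were nearly equal, and in the ERBB2-high and RARRES2-high lines none of their counts stood as a whole number. GENCODE release 29 places both under the overlapping gene AC093512.2, whereas the deposited annotation places them under ALDOA. ENST00000563060, with a start at 30064274, held 2.74%, 2.05% and 4.90%. The upstream grouping was made after the values were seen.

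TPI1 kept the same forms in every line. ENST00000229270 and ENST00000613953, which differ in their starts, had identical shares of 35.8% in the ERBB2-high line, 36.7% in the RARRES2-high line and 36.4% in the FOLR1-high line, so their reads were not told apart. ENST00000396705 held 27.8% (interval 25.7 to 29.8%), 25.9% (23.9 to 27.9%) and 26.7% (24.7 to 28.8%). A single transcript dominated the remaining genes in each line. The LDHA transcript ENST00000422447 held 99.0%, 98.8% and 97.1% of all counts, the LDHB transcript ENST00000350669 96.7%, 98.7% and 99.6%, and the GAPDH transcript ENST00000229239 95.0%, 95.1% and 96.2%. At matched counts the largest share difference of these 3 genes in any pair was 1.40 points, for GAPDH.

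The spread among cells of a line was described after each cell was thinned to 2000 counts, which left out 42, 30 and 32 shallower cells. A PKM count per cell of 3 (10th to 90th percentile 1 to 7) was the median of 606 ERBB2-high cells, 4 (2 to 8) of 443 RARRES2-high cells and 1 (0 to 3) of 733 FOLR1-high cells. For LDHB the medians were 1, 1 and 2, and for GAPDH 5, 7 and 7. The percentile ranges of the lines overlapped for all 8 genes plotted, of which PGK1 was under a mean of 0.5 in the FOLR1-high line. The variance over mean is an index that grows with the mean. Its median was 1.13, 1.17 and 1.15 over the 644, 637 and 522 genes with a mean of at least 0.5 in the line at this depth. GAPDH, which also had the highest mean of the genes plotted in the RARRES2-high and FOLR1-high lines, had 1.93, 2.43 and 1.91. LDHA had 1.48, 1.65 and 1.27, PKM 1.43, 1.504 and 1.23, and PGK1 0.978 and 1.27 in the ERBB2-high and RARRES2-high lines.

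**Figure D5:**
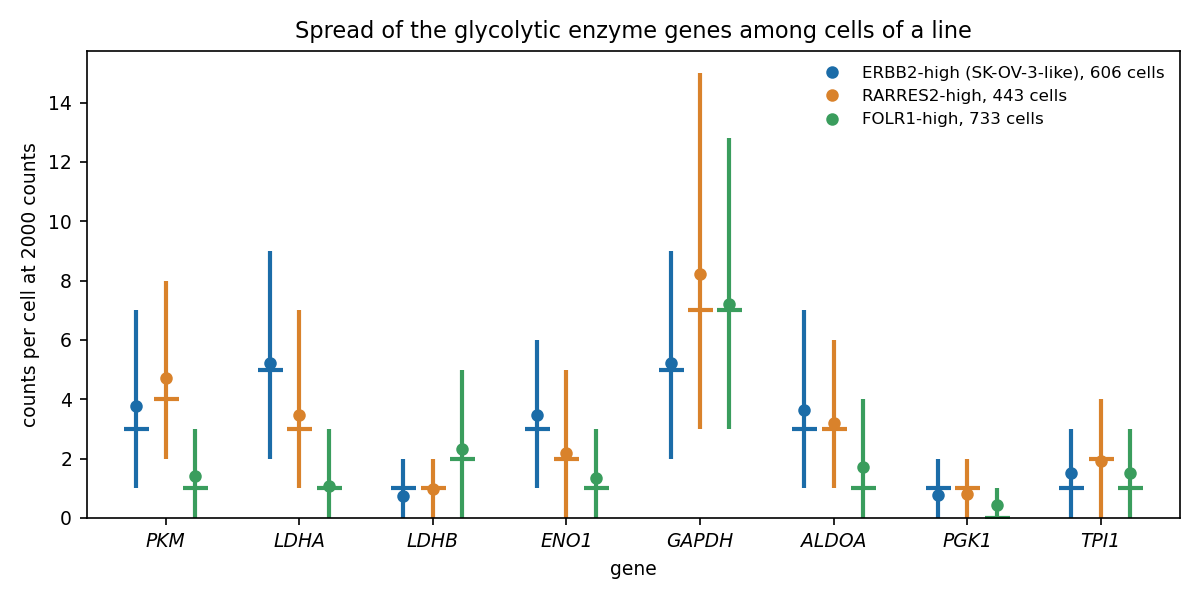
Counts per cell after thinning to 2000 counts for 8 glycolytic enzyme genes; circles are means, short bars medians and vertical lines the 10th to 90th percentile of cells, for 606, 443 and 733 cells of the 3 lines. PKM and LDHA ranges sit lower and the LDHB range higher in the FOLR1-high line, with overlap between lines.

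Correlations across cells within a line were weak. Over the 21 pairs of 7 genes with enough counts, the median Pearson r of thinned log counts was 0.08 in the ERBB2-high line (range -0.09 to 0.22), 0.17 in the RARRES2-high line (0.05 to 0.28) and 0.06 in the FOLR1-high line (-0.06 to 0.16). The 5 genes most like PKM, by the mean r over the 3 lines among 378 genes, were LGALS1 (0.14), GAPDH (0.14), LDHA (0.14), ANXA2 (0.12) and TMSB10 (0.12). ALDOA ranked 7, ENO1 9, TPI1 18 and LDHB 201. Cells of a library share its depth and free RNA, and values of this size in sparse counts are a description only.

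The FOLR1-high line holds cells in which CXCL14 made up at least 75% of the CXCL14, CD44 and DEFB1 counts (251 barcodes) and cells in which it made up at most 25% (302 barcodes). LDHA was 1.51-fold higher in the latter (660 against 436 CPM, interval 1.37 to 1.67) and PKM 1.36-fold higher (794 against 582 CPM, interval 1.25 to 1.49). PGK1 was 1.33-fold higher (interval 1.14 to 1.55), ALDOA 1.23-fold (1.14 to 1.33), TPI1 1.20-fold (1.11 to 1.31) and GAPDH 1.18-fold (1.14 to 1.23). LDHB differed by 1.12-fold (interval 1.05 to 1.20) and ENO1 by 1.08-fold (interval 0.99 to 1.18). HK2, at 8.48 against 6.03 CPM, had too few counts to place (interval of the ratio 0.575 to 3.76). The median of 5958 genes was 1.06-fold higher in the same cells.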

How the data were processed

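Single-cell long-read values of 1 PromethION library were analysed; the Illumina library gave barcodes only. The authors deposited estimated counts per transcript and barcode, not normalised. The submitters' processing notes name Cell Ranger 6.0.1 and GRCh38; the aligner, annotation release and collapsing of molecular identifiers are not stated there, so intervals cover counting error only. Of the matrix entries 39.8% were whole within 1e-06, and all sums per gene entry were, so counts were summed per entry and rounded. Lines were assigned by the marker rule. CPM ratios have exact conditional Poisson intervals, single sums exact Poisson and shares exact Clopper-Pearson intervals, for matched shares at the matched number of counts. Matched shares weight each count of the gene per cell by the smallest line's counts at it. Transcript structure came from GENCODE release 29. Thinning was without replacement. Doublets were called with Scrublet (scanpy 1.11.5, expected rate 0.02) only as an alternative: 49 of 2129 barcodes (2.30%), 35 of them among the 243 with no line. The text names all 10 genes, their transcripts with at least 5% in a line, listed pathway genes and the 5 genes most like PKM; examples of other transcripts were added. Fold and share scripts were tested on simulated data. The genes and lists were chosen with earlier results of these data known. Values of some listed pathway genes are not reported here.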

Additional observations from a re-analysis of the deposited data

Results flagged for a closer look

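Values outside the lines are given as they stand. The joint entry of PFKP, AL451164.3 and PITRM1-AS1 held 1488 counts over all barcodes. Its transcript ENST00000381125, a PFKP transcript in GENCODE release 29, held 84.9% of the entry's counts in the ERBB2-high line. It held 82.1% in the RARRES2-high line and 76.0% in the FOLR1-high line. Barcodes under 1000 counts held 905 counts of the 9 genes, with PKM at 1286 CPM (interval 1083 to 1516) and LDHB at 308 (213 to 430), beside 27.4% of their counts in mitochondrial genes. The 243 barcodes with no line held 19133 counts of the 9 genes, with PKM at 1921 CPM, LDHA at 1649 and LDHB at 582, between the highest and lowest line in each case; 14.4% of these barcodes were called doublets.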

How the results depend on the processing

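No paired analysis was possible because only 1 library was analysed and no test was run. The alternative without a filter on low counts leaves each log2 ratio as it is, so its values could not change sign. With those included, none of the 64 alternative values of the 8 log2 ratios past 2-fold changed sign. Of the 128 values of the 16 ratios under 2-fold 5 did, for GAPDH between the RARRES2-high and FOLR1-high lines (0.15 to -0.16 without mitochondrial and ribosomal protein genes), and for ALDOA (0.17 to -0.03 relative to the median gene) and PGK1 (-0.003 to 0.09 at 90% purity) between the ERBB2-high and RARRES2-high lines. Scaling to the median gene lowered the number past 2-fold between the ERBB2-high and FOLR1-high lines to 2, by construction, and a ratio of 1.5 gave 3 genes between the ERBB2-high and RARRES2-high lines and 6 between the RARRES2-high and FOLR1-high lines, of 8 in each and beside 54.7% and 54.1% of all genes. Without a filter on low counts 22 of 48 and 22 of 47 listed pathway, splicing and hypoxia genes passed in the pairs of the RARRES2-high with the ERBB2-high and the FOLR1-high line, beside 33.7% and 34.4% of all genes; with the filter 14 of 30 and 14 of 31 had passed, beside 33% and 33.1%. A purity of 90% left 528, 285 and 707 barcodes, and 3 marker counts left 601 ERBB2-high and 679 FOLR1-high barcodes. With whole counts only, 1 gene (ALDOA) passed 10 points between the ERBB2-high and RARRES2-high lines, beside 29.2% of 4208 genes. In the pair of ERBB2-high and FOLR1-high lines the gene was LDHA in place of ALDOA, beside 28.2% of 4436 genes. A limit of 20 points gave 0 genes in both pairs with the FOLR1-high line. The share of all genes at that limit was not counted, so nothing is read from it. The PKM exon 10 share was 100% in the ERBB2-high and RARRES2-high lines on whole counts, which were few, and 97.7% and 95.8% in the RARRES2-high and FOLR1-high lines on pooled counts. The mean over cells put the LDHB share at 13.9%, 24.3% and 69.0%, and 90% purity put it at 24.5% in the RARRES2-high line. Over all genes, the number past 10 points between the ERBB2-high and RARRES2-high lines went from 463 of 4245 (10.9%) to 1229 of 4208 (29.2%) on whole counts and to 1094 of 3179 (34.4%) with at least 3 counts of the gene per cell. Where no construction is named, the cause was not tested. The alternative of 50 matched counts, and those of the ALDOA start, were chosen after seeing the data.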

Other observations

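Some genes of the pathway lists had most of their few counts in a single line. PGAM2, the muscle phosphoglycerate mutase, had 39 counts in the FOLR1-high line, 2 in the RARRES2-high line and 0 in the ERBB2-high line. FBP1, the gluconeogenic fructose bisphosphatase, had 22 counts in the RARRES2-high line and 0 in the others. SLC2A3, the transporter GLUT3, had 13 counts in that line and 0 in the others. ENO3, the muscle enolase, had 35 counts in the RARRES2-high line against 2 and 3. LDHD, the D-lactate dehydrogenase, had 12 counts in the FOLR1-high line, 1 in the RARRES2-high line and 0 in the ERBB2-high line.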
